A study of Mus musculus with 12 samples.

Results

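The 39 genes described here encode the proteins that carry glucose into the cell, break it down to pyruvate and lactate, pass pyruvate on to the mitochondrion or divert glucose into the pentose phosphate pathway, together with Hif1a, the oxygen-regulated transcription factor that controls many of them. They were taken by gene symbol, with no threshold on a measured value. All 39 were found among the 36222 genes of the expression table, each under 1 identifier. Of these, 36 reached a mean of at least 5 TPM as deposited (an abundance corrected for transcript length that sums to the same total in each library) in at least 1 group and were tested with the 13318 genes that did so. Hk3, Aldoc and Pgam1 stayed under that level in every group, although Aldoc averaged 5.25 in cKO stimulated once scaled between libraries as below, and they are given as levels only.

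RNA had been sequenced from 12 libraries of mouse regulatory T cells (Treg), in 4 groups of 3 that come from individual mice. All mice carried Foxp3-YFP-Cre, a yellow fluorescent reporter and Cre recombinase under the control of Foxp3, the gene that defines Treg, and in all groups the YFP+ cells were sorted from total CD4+ T cells. The labels give the spleen as their tissue, whereas the study's general purification methods name spleen and lymph nodes. Wild-type (WT) mice had no floxed allele. Conditional knockout (cKO) mice also had floxed Ikzf1 (fl/fl), so that Cre removed Ikaros, a zinc finger transcription factor of lymphocytes, only from cells that had turned on Foxp3. RNA was taken either directly (the ex vivo groups) or after 4 h of activation by plate-bound anti-CD3 and anti-CD28, at 1 µg/ml each (the stimulated groups). Mice of the ex vivo groups were 6 to 8 weeks old and matched for age, and no separate age is stated for the stimulated groups. The comparisons ask how the glucose pathway genes differ with the loss of Ikaros at rest and after activation, and how each genotype responds to activation. No group was cultured for 4 h without the antibodies. The stimulation changes below therefore include those of culture, and the design cannot tell these apart.

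Glycolysis splits glucose into pyruvate in an investment phase that spends ATP and a payoff phase that returns it. Lactate dehydrogenase then regenerates NAD from NADH, or pyruvate dehydrogenase feeds the tricarboxylic acid cycle unless pyruvate dehydrogenase kinases switch it off. The pentose phosphate pathway branches off at glucose 6-phosphate and supplies NADPH and ribose. Activated conventional T cells are known for a shift towards aerobic glycolysis, whereas Treg are known to depend more on mitochondrial oxidation, and Foxp3 itself is known to restrain glycolysis.

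Libraries held 8208659 to 20247649 reads assigned to genes, with the shallowest in cKO stimulated. A single gene model, Gm10800, took 17.7% to 39.8% of the TPM of a WT ex vivo library and 20.4% to 24.4% of a cKO ex vivo one. After stimulation it took 32.6% to 44.4% in WT and 42.9% to 55.9% in cKO, with the highest share in cKO stimulated 3. All stimulated libraries lay above all ex vivo ones except WT ex vivo 2 (39.8%). The TPM were therefore scaled between libraries by the trimmed mean of M-values (factors of 0.732 to 1.21). Levels below are such scaled TPM unless given as deposited. WT ex vivo 3 stood apart in being the only library with Xist, at 179 TPM against at most 1.36 elsewhere. Its Ddx3y was at 0.097 TPM against 14.7 to 52.8 elsewhere, the pattern of a female among male mice. By these genes the WT ex vivo group was mixed in sex, unlike the other groups. Among the genes described here Pgk1, G6pdx, Pdha1 and Pdk3 are X-linked. Ikzf1 itself was at 33.0 to 42.1 scaled TPM in cKO ex vivo, 34.4% of the WT mean, and at 23.3 to 30.1 after stimulation, 40.3% of the WT mean, with reads counted over all its exons, the floxed ones and the others. The 7 markers of Treg and T cells that were checked, Foxp3 among them, summed to 1233 to 2213 scaled TPM, whereas the markers of each of 7 other blood cell types summed to at most 18.0, with none of the markers at 0 in all libraries.

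The levels of the 39 genes spanned a wide range. Over all libraries 3 genes averaged more than 100 scaled TPM, namely Pkm2 (pyruvate kinase, the last step of glycolysis) at 159, Hif1a at 145 and Aldoa (aldolase A, which splits the 6-carbon sugar) at 110.0. A further 23 genes averaged 10 to 100 scaled TPM and 13 averaged less than 10. Pkm2, Hif1a, Aldoa, Ldha and Gpi1 made up 52.7% of the summed level. Among isozymes Hk1 (18.2) stood above Hk2 (8.02) and Hk3 (3.50), Pfkp (22.1) and Pfkl (16.3) above Pfkm (6.45), Aldoa above Aldoc (4.07), and Eno1 (15.4) and Eno3 (12.2) above Eno2 (5.47). As a yardstick for low values, 1398 genes of olfactory and vomeronasal receptors, which T cells do not use, were taken. In the group means their median was 0.687 to 1.05 TPM and their 95th percentile up to 2.02 TPM. The means of Pgam1 (2.58), Hk3 and Aldoc lay above these values. Of the exonic stretches of read length in Pgam1, only 9.01% occur once in the genome. The low value of Pgam1 therefore cannot be read as low expression.

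**Figure D1:**
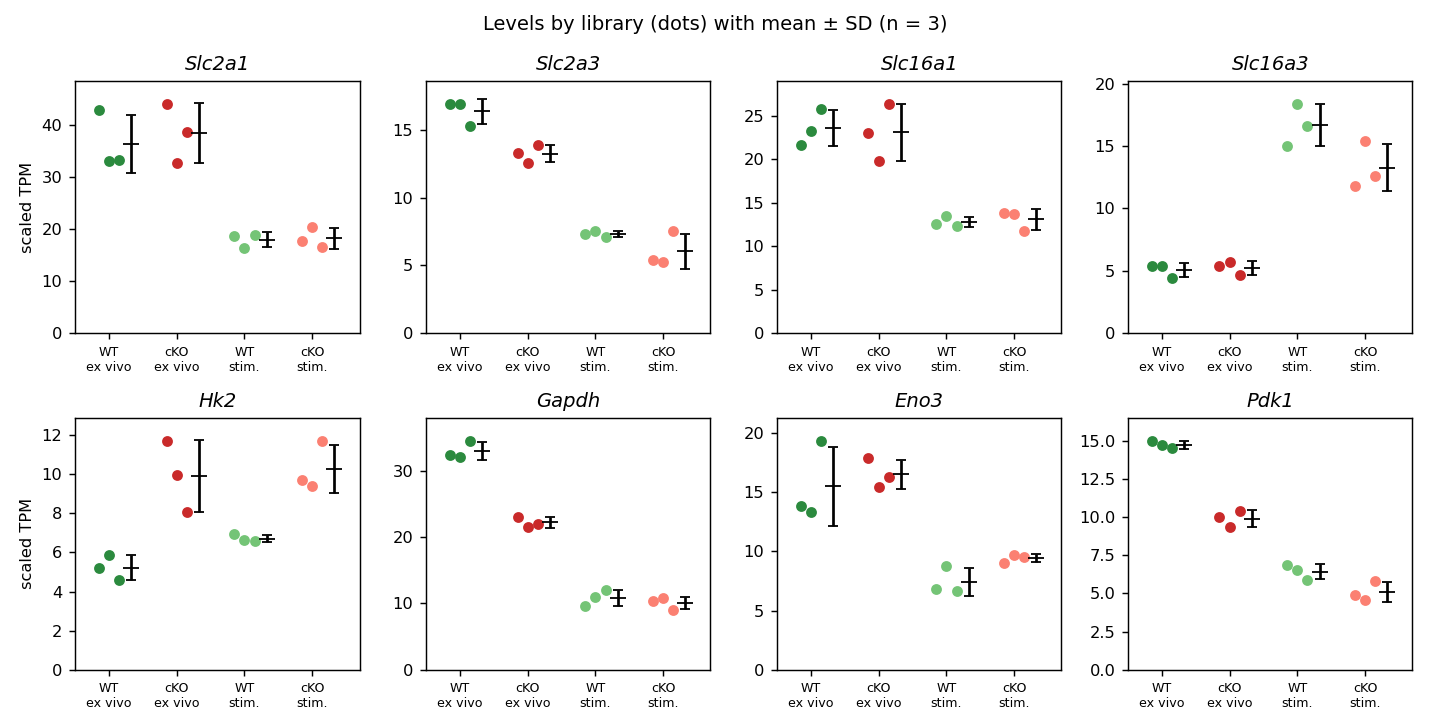
Scaled TPM of selected genes in each of the 12 libraries (dots, linear axis from 0) by group, with the mean and SD of 3 libraries. Slc16a3 is high in all 6 stimulated libraries, Slc2a1, Slc16a1, Gapdh and Pdk1 are low in them, and Hk2 is higher in cKO than in WT libraries in both conditions.

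The summed level of the 39 genes was 1029.6 ± 57.6 scaled TPM for WT and 1059 ± 72.5 for cKO Treg ex vivo (SD, n = 3), and 923 ± 33.7 and 915 ± 75.4 once stimulated. Single libraries ran from 972 to 1088 (WT) and 980 to 1123 (cKO) ex vivo, and from 895 to 960 (WT) and 830 to 975 (cKO) when stimulated, so in each genotype the stimulated libraries lay below the ex vivo ones, and the 2 genotypes overlapped in each condition. This order rests on the scaling: on the TPM as deposited the means were 979.9 and 1175 ex vivo and 1007 and 823 after stimulation, which places WT stimulated above WT ex vivo. As a share of the TPM left without Gm10800 they were 0.132% (WT) and 0.152% (cKO) ex vivo and 0.162% and 0.159% once stimulated, so on that scale the stimulated mean lay above the ex vivo mean in both genotypes. In bulk RNA fewer cells of a type and less RNA per cell cannot be told apart.

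Promoter sequences are shown for Slc16a3 and Slc16a1, the lactate carriers that moved in opposite directions after stimulation, and for Hk2, Gapdh and Pdk1, the genes called between genotypes. They are from RefSeq (GRCm38.p6), read on the strand of the gene up to the RefSeq start, and were placed on NCBIM37 (mm9), the build of the files, by an exact match at chr11:120810131-120810366, chr3:104442337-104442586, chr6:82724449-82724698, chr6:125115792-125116041 and chr2:71711031-71711280. Slc16a3, Slc16a1 and Pdk1 are on the plus strand, and Hk2 and Gapdh on the minus strand. None of the stretches overlaps an annotated exon of its gene, the Slc16a3 one having been ended at the exon, and the Gapdh and Slc16a3 ones lie inside the longest annotated gene span and the other 3 before it. Capitals mark the hypoxia response core (ACGTG or GCGTG) and the E-box (CACGTG, which contains ACGTG on both strands), searched on both strands.
Slc16a3: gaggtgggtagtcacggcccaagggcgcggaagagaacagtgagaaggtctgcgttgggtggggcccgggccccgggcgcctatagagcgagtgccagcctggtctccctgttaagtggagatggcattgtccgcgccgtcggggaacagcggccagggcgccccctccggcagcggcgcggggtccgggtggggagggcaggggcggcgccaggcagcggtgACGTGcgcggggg
Slc16a1: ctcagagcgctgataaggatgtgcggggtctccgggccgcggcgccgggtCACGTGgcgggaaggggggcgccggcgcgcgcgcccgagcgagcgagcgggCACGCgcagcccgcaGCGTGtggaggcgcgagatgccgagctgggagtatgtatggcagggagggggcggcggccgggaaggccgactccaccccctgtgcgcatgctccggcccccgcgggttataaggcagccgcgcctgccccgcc
Hk2: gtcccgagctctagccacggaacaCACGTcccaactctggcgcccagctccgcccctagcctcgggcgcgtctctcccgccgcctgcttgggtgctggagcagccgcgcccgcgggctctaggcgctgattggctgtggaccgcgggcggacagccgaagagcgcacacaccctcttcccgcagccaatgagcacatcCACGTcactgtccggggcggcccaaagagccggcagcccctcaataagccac
Gapdh: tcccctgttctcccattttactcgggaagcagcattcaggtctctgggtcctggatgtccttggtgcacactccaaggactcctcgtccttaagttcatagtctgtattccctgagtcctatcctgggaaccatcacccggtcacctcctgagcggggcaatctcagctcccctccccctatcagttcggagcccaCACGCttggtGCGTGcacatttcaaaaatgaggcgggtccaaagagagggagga
Pdk1: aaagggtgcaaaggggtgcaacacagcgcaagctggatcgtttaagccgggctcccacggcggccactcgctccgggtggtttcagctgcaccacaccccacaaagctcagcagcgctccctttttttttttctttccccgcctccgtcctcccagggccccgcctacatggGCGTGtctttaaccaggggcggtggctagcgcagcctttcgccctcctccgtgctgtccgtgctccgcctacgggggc

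The RefSeq table held 53 promoters for 38 of the 39 genes, with no entry found for Slc2a3. Within 250 bases before the start, a hypoxia response core stood in 77.4% of them, in at least 1 promoter of 33 genes, against 38.6% of all 32851 promoters of the same length. An E-box stood in 11.3% against 6.02%, and belonged to Pfkm, Ldha, Pdk2, Slc16a1, Pfkfb3 and Hif1a. TGGGAA, a core bound by Ikaros, stood in 18.9% against 21.6% and occurs once among the sequences above, in the Gapdh one. The Slc16a1 stretch has 1 E-box and the Slc16a3 stretch has none, and all 5 stretches have at least 1 hypoxia response core. These are matches of letters and were not tested against binding or expression.

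Stimulation for 4 h was followed by more calls downwards than upwards. Among the 36 genes tested, 18 were called in WT (adjusted p under 0.05, limma with Benjamini-Hochberg adjustment over all 13318 genes), 4 higher and 14 lower, where 32% of all genes tested were called, 12.7% higher and 19.3% lower. In cKO 22 were called, 5 higher and 17 lower, where 43.8% of all genes were, 17.3% higher and 26.5% lower. The median change of the 36 genes was -0.17 (log2) in WT beside 0.00 over all genes tested, and -0.20 beside -0.01 in cKO. With quantile normalization these medians were -0.05 beside 0.03 in WT and 0.02 beside 0.00 in cKO, so the cKO median turned. Stimulated and ex vivo libraries did not overlap for 28 of the 36 genes in WT and 25 in cKO, against 47.5% and 53.5% of all genes.

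The genotypes gave the same direction wherever both were called: 13 genes were lower in both, 3 were higher in both and 0 went opposite ways. Slc16a3, Eno2 and Pfkfb4 were the 3 higher ones, but Pfkfb4 passed the filter only through the stimulated groups, where it is high, so its direction was favoured by the filter. The 13 lower ones were Slc2a1, Slc2a3, Slc16a1, Gpi1, Pfkp, Gapdh, Eno1, Eno3, Pdk1, Pdha1, Pdhb, Tkt and Taldo1. Calls in WT alone were Pdk2 (higher) and Pfkfb3 (lower), calls in cKO alone were G6pdx and Pdk3 (higher) and Ldhb, Pfkl, Pgk1 and Pkm2 (lower), and 12 genes were called in neither. The 2 comparisons share no library, but the difference between them passed the interaction test for none of these genes, so a call in a single genotype is not shown to be particular to it.

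The split into higher and lower depends on how libraries are brought to a common level. With the TPM rescaled after leaving out Gm10800 and no further scaling, 13 of the 36 genes were called higher and 6 lower in WT, and 11 higher and 8 lower in cKO, in a setting that also moved the median of all genes by 0.42 and 0.25 (log2). That setting also brought Hk3, Aldoc and Pgam1 past the filter, and over all 39 genes 14 of 20 calls were higher in WT and 14 of 22 in cKO. The TPM as deposited gave 4 of 10 and 1 of 19 higher, with a shift of 0.18 and -0.30, a filter at 1 TPM, under which all 39 genes were tested, gave 1 of 8 and 1 of 20, with a shift of -0.23 and -0.49, and quantile normalization gave 6 of 14 and 5 of 16. Median of ratios scaling gave 9 of 26 higher in cKO. In WT 7 calls and in cKO 9 calls kept their direction and their call under all 23 alternatives. Slc16a3 was higher, and Slc2a1, Slc2a3, Slc16a1, Gapdh, Eno3 and Pdk1 were lower, in both genotypes, joined in cKO by Pfkp and Pdha1, both lower.

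**Figure D2:**
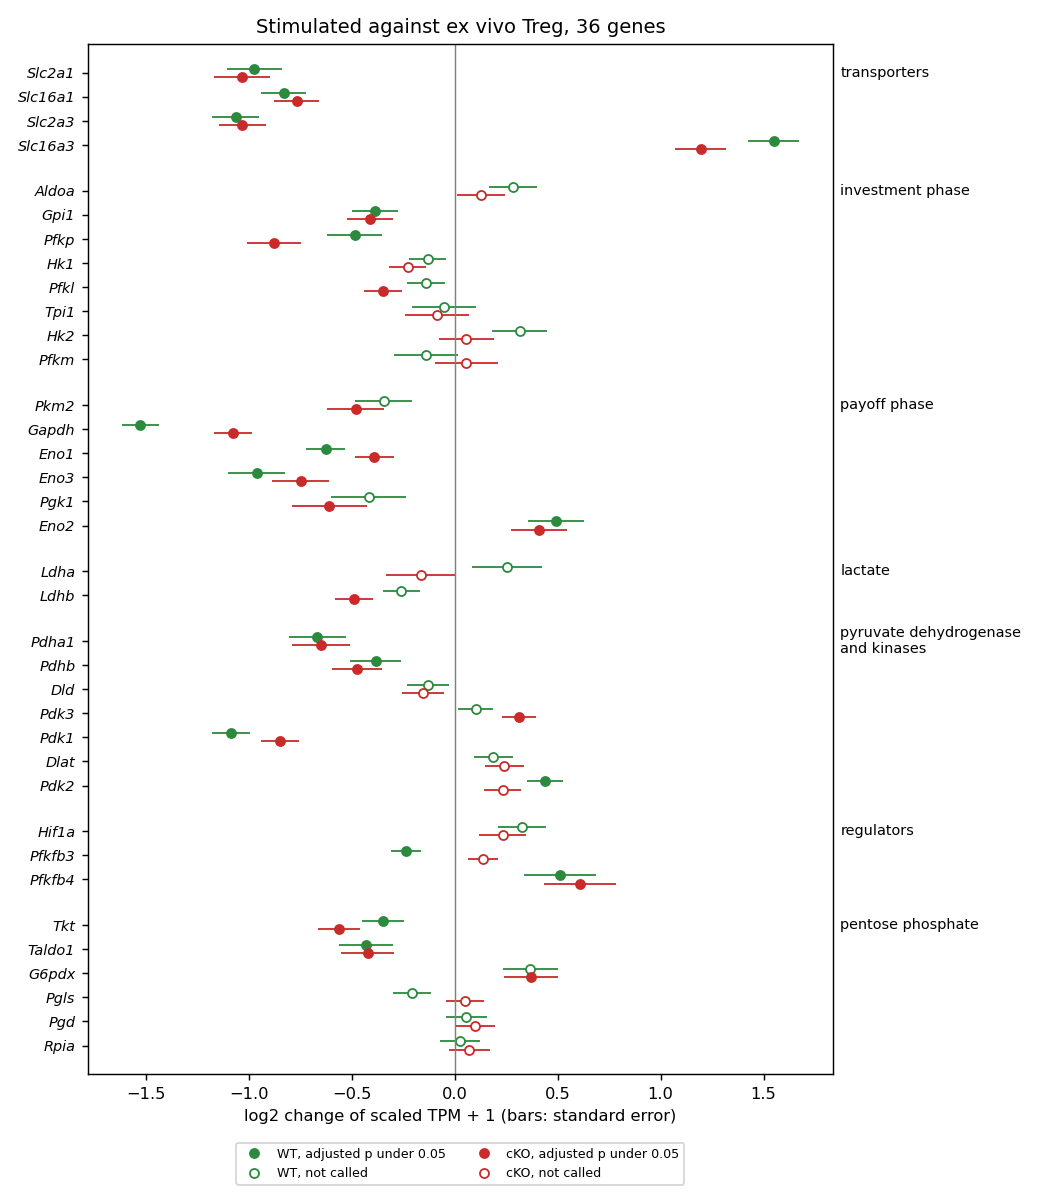
Log2 change of scaled TPM + 1 from ex vivo to stimulated Treg for the 36 genes tested, ordered by role, in WT (green) and cKO (red). Points are limma estimates, bars are standard errors, and filled points have an adjusted p under 0.05. Slc16a3 lies furthest to the right, at 1.55 and 1.19, and Gapdh furthest to the left, at -1.53 and -1.08.

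Of the 4 carriers at the cell membrane 1 was higher and 3 were lower after stimulation in both genotypes. Slc16a3 (ENSMUSG00000025161, mm9 chr11:120809794-120822182, plus strand) encodes MCT4, a monocarboxylate carrier known for exporting lactate. It stood at 5.36, 5.37 and 4.39 scaled TPM in WT ex vivo and at 15.0, 18.4 and 16.6 in WT stimulated. In cKO it stood at 5.34, 5.71 and 4.63 ex vivo and at 11.8, 15.4 and 12.6 after stimulation. Every stimulated library was above every ex vivo library. The folds given here and below are of scaled TPM + 1 and understate those of the levels. The change was 1.55 (log2, SE 0.12, limma adjusted p 1.00e-05) in WT, a fold of 2.93 with a 95% interval of 2.42 to 3.53, and 1.19 (SE 0.12, adjusted p 3.87e-05) in cKO, a fold of 2.29 with an interval of 1.89 to 2.76.

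Slc16a1 (ENSMUSG00000032902, mm9 chr3:104442591-104462385, plus strand) encodes MCT1, the carrier that moves lactate and pyruvate in either direction. It went from 21.6, 23.3 and 25.7 to 12.5, 13.4 and 12.4 scaled TPM in WT, and from 23.0, 19.8 and 26.3 to 13.8, 13.7 and 11.7 in cKO. The groups did not overlap in either genotype, and the change was -0.83 (SE 0.11, adjusted p 0.000232) and -0.77 (SE 0.11, adjusted p 0.000326). Slc2a1, which encodes GLUT1, the main glucose transporter of activated T cells, went from 42.9, 33.1 and 33.4 to 18.8, 16.4 and 18.8 in WT, and from 44.1, 32.7 and 38.7 to 17.8, 20.4 and 16.5 in cKO. It fell by 0.97 (SE 0.13, adjusted p 0.000295) and by 1.03 (SE 0.13, adjusted p 0.000167) on the log2 scale, and all stimulated libraries were below all ex vivo ones. Slc2a3, which encodes GLUT3, a glucose transporter of high affinity, went from 16.9, 16.9 and 15.3 to 7.32, 7.53 and 7.06 in WT, and from 13.3, 12.6 and 13.9 to 5.37, 5.22 and 7.51 in cKO. It fell by 1.06 (SE 0.11, adjusted p 5.96e-05) and by 1.03 (SE 0.11, adjusted p 5.85e-05), again without overlap.

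In the investment phase 2 of 8 genes tested were lower in WT and 3 in cKO, and none was higher. Pfkp, the platelet form of phosphofructokinase, the committed step of glycolysis, went from 28.0, 22.3 and 19.5 to 15.9, 16.0 and 16.5 scaled TPM in WT (-0.49, SE 0.13, limma adjusted p 0.0167) and from 35.5, 28.4 and 32.5 to 19.1, 17.0 and 15.0 in cKO (-0.88, SE 0.13, adjusted p 0.000444). The groups stood apart in both genotypes. Gpi1, glucose 6-phosphate isomerase, went from 59.5, 53.7 and 65.4 to 44.5, 43.7 and 47.3 in WT (-0.39, SE 0.11, adjusted p 0.0204) and from 63.9, 51.1 and 57.3 to 44.5, 46.5 and 37.8 in cKO (-0.41, SE 0.11, adjusted p 0.0120), also without overlap. The Gpi1 change turned to 0.053 in WT when rescaled without Gm10800 and to 0.036 in cKO with quantile normalization. Pfkl, the liver form of phosphofructokinase, was lower in cKO, from 21.3, 17.2 and 17.8 to 14.0, 14.3 and 15.3 (-0.35, SE 0.09, adjusted p 0.0114), and stood at 18.5, 16.0 and 16.1 and then 14.8, 15.6 and 15.2 in WT (-0.14, adjusted p 0.271). Aldoa, the most abundant enzyme of this phase, was at 94.0, 95.9 and 119 in WT ex vivo and 128, 116 and 131 in WT stimulated, groups that overlap, with a change of 0.28 (SE 0.12, adjusted p 0.0853). In cKO its change was 0.13 (SE 0.12, adjusted p 0.390). With quantile normalization Aldoa was called higher in both, at 0.77 (adjusted p 0.000181) and 0.81 (adjusted p 0.00012), and rescaled without Gm10800 at 0.73 and 0.39, whereas with the 1 TPM filter its cKO value was -0.42. It was also called in WT without WT ex vivo 3 (0.40, adjusted p 0.0242). The changes of Hk1, Hk2, Pfkm and Tpi1 lay between -0.23 and 0.31 and were not called in either genotype.

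The payoff phase held the largest fall. Gapdh (ENSMUSG00000057666, mm9 chr6:125111871-125116485, minus strand), glyceraldehyde 3-phosphate dehydrogenase and a common reference gene, went from 32.4, 32.0 and 34.5 to 9.60, 10.9 and 11.9 scaled TPM in WT and from 23.0, 21.6 and 21.9 to 10.3, 10.7 and 8.99 in cKO. Every stimulated library was below every ex vivo one. The change was -1.53 (SE 0.09, limma adjusted p 1.77e-06), a fold of 0.347 (95% interval 0.302 to 0.399), in WT and -1.08 (SE 0.09, adjusted p 9.69e-06), a fold of 0.474 (0.412 to 0.545), in cKO. The other genes tested in this phase moved less. Eno1, the ubiquitous enolase, went from 16.9, 19.4 and 18.5 to 11.6, 10.5 and 12.4 in WT (-0.63, SE 0.09, adjusted p 0.000538) and from 19.5, 18.9 and 16.0 to 14.3, 13.5 and 12.9 in cKO (-0.39, SE 0.09, adjusted p 0.00742). Eno3, the muscle enolase, went from 13.8, 13.3 and 19.3 to 6.78, 8.77 and 6.67 in WT (-0.96, SE 0.14, adjusted p 0.000399) and from 17.9, 15.4 and 16.2 to 9.04, 9.68 and 9.50 in cKO (-0.75, SE 0.14, adjusted p 0.00168). Neither gene had overlapping groups.

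Eno2, the neuronal enolase, went the other way at a lower level, from 3.79, 4.24 and 3.24 to 5.77, 5.68 and 5.53 scaled TPM in WT (0.49, SE 0.14, limma adjusted p 0.0181) and from 5.09, 6.04 and 4.53 to 7.11, 6.40 and 8.24 in cKO (0.41, SE 0.14, adjusted p 0.0319), a cKO value that turned to -0.063 with the 1 TPM filter and -0.054 with no filter. Pkm2, with the highest level of all, was at 181, 157 and 189.5 in WT ex vivo and 142, 119 and 153 in WT stimulated (-0.35, SE 0.14, adjusted p 0.0824). In cKO it was lower after stimulation, from 199.96, 172 and 190.2 to 138, 156 and 111 (-0.48, SE 0.14, adjusted p 0.0178). With quantile normalization the Pkm2 change turned to 0.24 in WT and 0.26 in cKO, and rescaled without Gm10800 to 0.10 in WT. The groups of both genes did not overlap in either genotype. Pgk1, phosphoglycerate kinase, was lower in cKO, from 8.98, 6.70 and 7.73 to 4.21, 3.85 and 6.47 (-0.61, SE 0.18, adjusted p 0.0205), and changed by -0.42 (SE 0.18, adjusted p 0.104) in WT.

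Of the lactate dehydrogenase subunits, Ldha, which favours lactate formation, was called in neither genotype. It stood at 55.4, 40.3 and 58.9 scaled TPM in WT before and 58.4, 59.8 and 64.5 after stimulation, and at 59.4, 40.6 and 48.6 and then 48.2, 47.5 and 36.3 in cKO. Its change was 0.25 (SE 0.17, limma adjusted p 0.283) in WT, with a 95% interval of the fold of 0.919 to 1.55, and -0.16 (SE 0.17, adjusted p 0.454) in cKO, with an interval of 0.688 to 1.16. The WT change was called with quantile normalization (0.58, adjusted p 0.00195) and rescaled without Gm10800 (0.70, adjusted p 0.0078), and under both the cKO value turned, to 0.28 and 0.10. Ldhb, the heart subunit, was lower in cKO, from 18.7, 17.5 and 17.5 to 11.5, 11.9 and 14.1 (-0.49, SE 0.09, adjusted p 0.00173). In WT it went from 15.4, 14.2 and 14.9 to 11.1, 12.5 and 13.1, groups that do not overlap, with an adjusted p of 0.0503 (-0.26, SE 0.09).

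At the gate to the mitochondrion the kinases that inactivate pyruvate dehydrogenase parted. Pdk1 (ENSMUSG00000006494, mm9 chr2:71711281-71741915, plus strand) went from 15.0, 14.7 and 14.5 to 6.85, 6.51 and 5.90 scaled TPM in WT (-1.09, SE 0.09, limma adjusted p 1.50e-05) and from 9.99, 9.33 and 10.4 to 4.87, 4.57 and 5.80 in cKO (-0.85, SE 0.09, adjusted p 5.79e-05). Pdk2 went from 6.16, 7.62 and 7.22 to 9.81, 10.01 and 9.61 in WT (0.44, SE 0.09, adjusted p 0.00348) and from 7.87, 8.37 and 7.29 to 9.62, 8.97 and 9.54 in cKO (0.23, SE 0.09, adjusted p 0.0547). Pdk3 went from 11.4, 12.1 and 10.6 to 13.8, 15.7 and 13.5 in cKO (0.31, SE 0.08, adjusted p 0.0131) and changed by 0.10 (SE 0.08, adjusted p 0.388) in WT, and its cKO value turned to -0.20 with the 1 TPM filter and -0.19 with no filter. Pdk1 therefore had the highest of these levels in WT ex vivo and the lowest in both stimulated groups.

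The complex itself is made of the catalytic subunits Pdha1 and Pdhb and of Dlat and Dld, which pass on the acetyl group and the electrons. Pdha1 went from 45.8, 34.8 and 45.0 to 24.5, 27.2 and 25.7 scaled TPM in WT (-0.67, SE 0.14, limma adjusted p 0.00414) and from 37.5, 28.0 and 35.4 to 18.7, 24.3 and 20.1 in cKO (-0.65, SE 0.14, adjusted p 0.00393). Pdhb went from 33.8, 32.5 and 36.1 to 25.6, 23.3 and 29.1 in WT (-0.39, SE 0.12, adjusted p 0.0331) and from 37.5, 30.02 and 36.9 to 24.4, 28.3 and 21.6 in cKO (-0.48, SE 0.12, adjusted p 0.00983), the WT value turning to 0.049 when rescaled without Gm10800. Stimulated and ex vivo libraries of both subunits stood apart in each genotype. Dlat (0.19 in WT, 0.24 in cKO) and Dld (-0.13 and -0.15) were not called, with adjusted p of 0.0583 to 0.361.

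Among the regulators, Pfkfb4, which makes and removes fructose 2,6-bisphosphate, an activator of phosphofructokinase, averaged 3.49 (WT) and 4.10 (cKO) TPM as deposited ex vivo and 6.17 and 5.39 after stimulation. It was tested only because the stimulated means passed 5 TPM, so a rise is what the filter selects for and its calls are given as a description. On the scaled values it went from 3.12, 4.60 and 3.54 to 5.70, 6.83 and 4.75 scaled TPM in WT (0.51, SE 0.17, limma adjusted p 0.0459) and from 3.24, 4.48 and 3.27 to 5.98, 5.72 and 6.52 in cKO (0.61, SE 0.17, adjusted p 0.0169). Pfkfb3, which mainly makes that activator, was lower in WT, from 11.6, 11.2 and 11.6 to 9.26, 9.87 and 9.59 (-0.24, SE 0.07, adjusted p 0.0287), without overlap, but turned to 0.18 when rescaled without Gm10800. In cKO all 3 stimulated libraries, at 11.1, 11.5 and 11.3, lay above the ex vivo ones, at 10.6, 9.29 and 10.8, with a change of 0.14 (SE 0.07, adjusted p 0.145). Hif1a was at 113, 124 and 109.8 in WT ex vivo and 136, 149 and 151 in WT stimulated, and at 151, 132 and 156 and then 185, 189 and 145 in cKO. The WT libraries did not overlap and the cKO ones did, and the changes were 0.33 (SE 0.12, adjusted p 0.0521) and 0.23 (SE 0.12, adjusted p 0.124). Hif1a was called higher in 8 of 23 alternatives in WT and 4 in cKO, at up to 0.87 (adjusted p 3.8e-05) and 0.93 (adjusted p 1.9e-05) with quantile normalization. Among these were the fits without cKO stimulated 3, at 0.33 (adjusted p 0.0137) and 0.40 (adjusted p 0.00939), and in WT the one without cKO ex vivo 2 (adjusted p 0.048). With the 1 TPM filter the cKO value turned to -0.31.

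In the pentose phosphate pathway 2 of 6 genes, Tkt and Taldo1 of the non-oxidative branch, were lower in both genotypes. Tkt, transketolase, went from 30.1, 27.8 and 34.2 to 23.4, 23.0 and 25.1 scaled TPM in WT (-0.35, SE 0.10, limma adjusted p 0.0240) and from 34.6, 31.4 and 29.3 to 23.2, 21.5 and 18.9 in cKO (-0.56, SE 0.10, adjusted p 0.00150). Taldo1, transaldolase, went from 29.4, 24.9 and 35.1 to 24.4, 19.5 and 21.2 in WT (-0.43, SE 0.13, adjusted p 0.0258) and from 25.3, 21.3 and 25.5 to 16.7, 17.2 and 19.0 in cKO (-0.42, SE 0.13, adjusted p 0.0224). Rescaled without Gm10800 the WT values turned to 0.086 for Tkt and 6.0e-05 for Taldo1. G6pdx, glucose 6-phosphate dehydrogenase, which makes the first NADPH, was higher in cKO, from 15.3, 14.4 and 14.9 to 19.2, 23.1 and 16.8 (0.37, SE 0.13, adjusted p 0.0406), a value that turned to -0.15 with the 1 TPM filter and -0.14 with no filter. In WT its change was 0.37 (SE 0.13, adjusted p 0.0536), so the estimate was the same in size. Pgls, Pgd and Rpia, the lactonase, the second dehydrogenase and the ribose isomerase, changed by -0.21 to 0.10 and were not called.

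Several of these calls ended when a library was left out. In WT the calls of Pfkp (adjusted p 0.0601 without WT ex vivo 1), Eno2 (up to 0.0616, without WT ex vivo 3, WT stimulated 1 or 2), Gpi1 (up to 0.0833) and Tkt (up to 0.103) without WT ex vivo 1 or 3 or WT stimulated 1 or 2, Pdhb (up to 0.11, the same 4 libraries), Taldo1 (up to 0.119, without WT ex vivo 1 or 3 or WT stimulated 2 or 3), Pfkfb3 (up to 0.0949, without WT ex vivo 1 or 3 or WT stimulated 1 or 3) and Pfkfb4 (up to 0.17, in 8 of 12 fits, among them all those without WT ex vivo 1 or 3 or WT stimulated 1 or 2) were of this kind. In cKO they were Pdhb (0.0592 without cKO stimulated 3), Gpi1 (up to 0.0794, without cKO ex vivo 1 or cKO stimulated 3), Pdk3 (up to 0.0815, without cKO ex vivo 3 or cKO stimulated 2), Pfkfb4 (up to 0.0619, without cKO ex vivo 1 or 3), Pkm2 (up to 0.104, without cKO ex vivo 1 or 3 or cKO stimulated 3), Pgk1 (up to 0.0825, without cKO ex vivo 1 or 3 or cKO stimulated 1 or 2), Taldo1 (up to 0.0769) and Eno2 (up to 0.117) without cKO ex vivo 1 or 3 or cKO stimulated 1 or 3, and G6pdx (up to 0.209, in 7 of 12 fits). In all 12 such fits 10 of the 18 WT calls and 13 of the 22 cKO calls held.

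Genes called between genotypes ex vivo were few, at a share near that of all genes. Of the 36 genes 3 were called (limma, adjusted p under 0.05), 1 higher and 2 lower, or 8.33%, where 5.29% of all genes tested were called, 3.62% higher and 1.67% lower. At an unadjusted p under 0.05 there were 9, where 17.9% of all genes passed. Median changes were 0.01 (log2) for the 36 genes and -0.01 for all genes tested. WT and cKO libraries did not overlap for 9 of the 36, where 21.5% of all genes did not. This comparison shares its WT and cKO ex vivo libraries with the stimulation comparisons above.

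Hk2 (ENSMUSG00000000628, mm9 chr6:82675019-82724448, minus strand) encodes the inducible hexokinase that phosphorylates glucose on entry. It stood at 5.20, 5.87 and 4.58 scaled TPM in WT ex vivo and at 11.7, 9.94 and 8.06 in cKO ex vivo, with every cKO library above every WT library. The change was 0.80 (log2, SE 0.13, limma adjusted p 0.00637), a fold of scaled TPM + 1 of 1.74 with a 95% interval of 1.42 to 2.14. Hk1, the constitutive hexokinase, was at 18.2 ± 1.37 and 20.7 ± 1.63 (SD, n = 3) and not called, with an interval of 0.985 to 1.30. The Hk2 call held in all 12 fits that left out a library and ended at a filter of 1 TPM (adjusted p 0.112) and with no filter (0.104), over a range of 3.06e-05 to 0.112 among all alternatives.

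Gapdh was at 32.4, 32.0 and 34.5 scaled TPM in WT ex vivo and 23.0, 21.6 and 21.9 in cKO ex vivo, and Pdk1 at 15.0, 14.7 and 14.5 and at 9.99, 9.33 and 10.4. No cKO library reached the lowest WT library for either gene. Gapdh changed by -0.55 (SE 0.09, limma adjusted p 0.00637), a fold of 0.683 with a 95% interval of 0.594 to 0.785. Pdk1 changed by -0.53 (SE 0.09, adjusted p 0.00881), a fold of 0.693 with an interval of 0.601 to 0.799. Both calls held in the 12 fits without a library. They ended, with the direction kept, at a filter of 1 TPM, with no filter, on the TPM as deposited and on TPM rescaled without Gm10800, with adjusted p of up to 0.57 for Gapdh and 0.412 for Pdk1.

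The 33 genes not called ex vivo changed by between -0.31 and 0.46 (log2). For the most abundant ones the 95% interval of the fold was 0.864 to 1.32 for Pkm2, 0.829 to 1.18 for Aldoa, 0.742 to 1.25 for Ldha and 0.816 to 1.14 for Gpi1. Hif1a, at 113, 124 and 109.8 scaled TPM in WT and 151, 132 and 156 in cKO, did not overlap and had an interval of 1.06 to 1.51 with a limma adjusted p of 0.141. Pfkp, at 28.0, 22.3 and 19.5 against 35.5, 28.4 and 32.5, also stood apart, with an interval of 1.12 to 1.68 and an adjusted p of 0.0772. Eno2 and Ldhb were the other 2 that stood apart and higher, with intervals of 1.06 to 1.61 and 1.04 to 1.37 and adjusted p of 0.154 and 0.157. Slc2a3, at 16.9, 16.9 and 15.3 against 13.3, 12.6 and 13.9, and Pfkfb3, at 11.6, 11.2 and 11.6 against 10.6, 9.29 and 10.8, stood apart and lower, with intervals of 0.690 to 0.977 and 0.803 to 1.00 and adjusted p of 0.213 and 0.302. The other 3 carriers, Slc2a1, Slc16a1 and Slc16a3, gave values between -0.03 and 0.08, and the 6 pentose phosphate genes by between -0.29 and 0.07.

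After stimulation 1 of the 36 genes was called between genotypes, where 6.93% of all genes were, 3.3% higher and 3.63% lower. The medians were -0.01 (log2) for the 36 genes and -0.03 for all genes tested, and 12 of the 36 did not overlap, where 30.8% of all genes did not. The gene was Hk2, at 6.92, 6.62 and 6.57 scaled TPM in WT stimulated and 9.73, 9.41 and 11.7 in cKO stimulated, all cKO libraries above all WT ones. It changed by 0.54 (SE 0.13, limma adjusted p 0.0346), a fold of 1.46 with a 95% interval of 1.19 to 1.79. This call was lost without WT stimulated 1 (adjusted p 0.0746), WT stimulated 2 (0.112), WT stimulated 3 (0.105), cKO stimulated 1 (0.0776) or cKO stimulated 3 (0.0931), and in the fit that blocks on replicate number (0.0633), and the adjusted p ranged from 0.00463 to 0.487 over all alternatives.

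The other 35 genes changed by between -0.47 and 0.32 between stimulated groups. Gapdh and Pdk1 were at 9.60 to 11.9 against 8.99 to 10.7 scaled TPM and at 5.90 to 6.85 against 4.57 to 5.80, with 95% intervals of the fold of 0.811 to 1.07 and 0.708 to 0.942 and limma adjusted p of 0.528 and 0.0898. The largest uncalled difference was that of Ldha, at 58.4, 59.8 and 64.5 in WT and 48.2, 47.5 and 36.3 in cKO. Its interval was 0.555 to 0.937 and its adjusted p 0.128, with no overlap between the groups. Hif1a, at 136, 149 and 151 against 185, 189 and 145, overlapped, with an interval of 0.992 to 1.41. Pkm2 (0.786 to 1.20), Aldoa (0.743 to 1.06) and Gpi1 (0.801 to 1.12) had intervals that include 1.

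**Figure D3:**
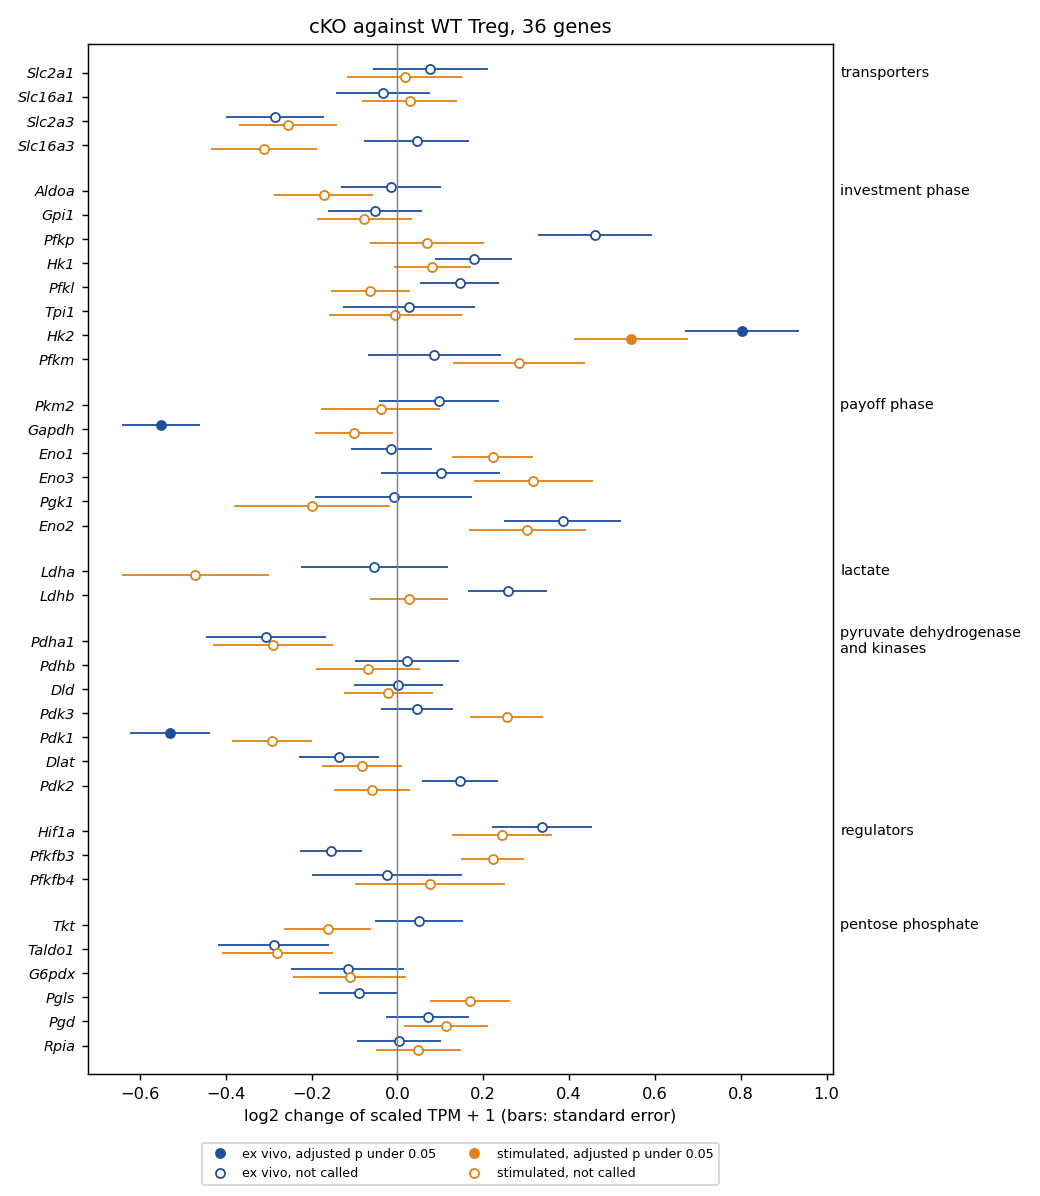
Log2 change of scaled TPM + 1 from WT to cKO Treg for the 36 genes tested, ordered by role, ex vivo (blue) and stimulated (orange). Points are limma estimates, bars are standard errors, and filled points have an adjusted p under 0.05. Hk2 is filled in both conditions, at 0.80 and 0.54, and Gapdh (-0.55) and Pdk1 (-0.53) are filled ex vivo only.

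The response to stimulation differed between the genotypes for 0 of the 36 genes by limma (interaction, adjusted p under 0.05), where 1.1% of all genes were called. At an unadjusted p under 0.05 there were 2, where 14.5% of all genes passed, and voom on the reads behind the TPM also called 0. The 2 were Pfkfb3, with a difference of 0.38 (log2, SE 0.10, unadjusted p 0.00391, adjusted p 0.116), and Gapdh, with 0.45 (SE 0.13, unadjusted p 0.00517, adjusted p 0.134). They were named after their values had been seen. The Pfkfb3 value turned to -0.11 and the Gapdh value to -0.04 on the TPM as deposited, and the adjusted p ranged from 0.0813 to 0.935 and from 0.0786 to 0.912 over the alternatives. For Hk2 the interaction was -0.26 (SE 0.19, adjusted p 0.557), so its genotype difference ex vivo is not shown to differ from that after stimulation.

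Ratios of 2 genes within a library are unchanged by a scaling that applies 1 factor to each library, which quantile normalization does not. These pairs were picked after the values had been seen, and are given with no test. The log2 ratio of Slc16a3 to Slc16a1 was -2.23 ± 0.29 in WT ex vivo and -2.14 ± 0.36 in cKO ex vivo (SD, n = 3), and 0.38 ± 0.11 and 0.02 ± 0.22 after stimulation. All 6 stimulated libraries lay above all 6 ex vivo ones. The ratio of Pdk2 to Pdk1 averaged -1.08 for WT and -0.34 for cKO ex vivo, then 0.61 and 0.89, and that of Pdk3 to Pdk1 averaged -0.43, 0.19, 0.88 and 1.501 in the same order. For both pairs the 4 groups did not overlap and stood in the same order. Eno2 to Eno1 averaged -2.29 and -1.80 ex vivo and -1.02 and -0.91 after stimulation, so Eno1 stayed above Eno2 throughout. Gapdh to Aldoa averaged -1.63, -2.19, -3.53 and -3.47. Hk2 to Hk1 averaged -1.80 (WT) and -1.08 (cKO) ex vivo, then -1.30 and -0.77, with every cKO library above every WT library within each condition.

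**Figure D4:**
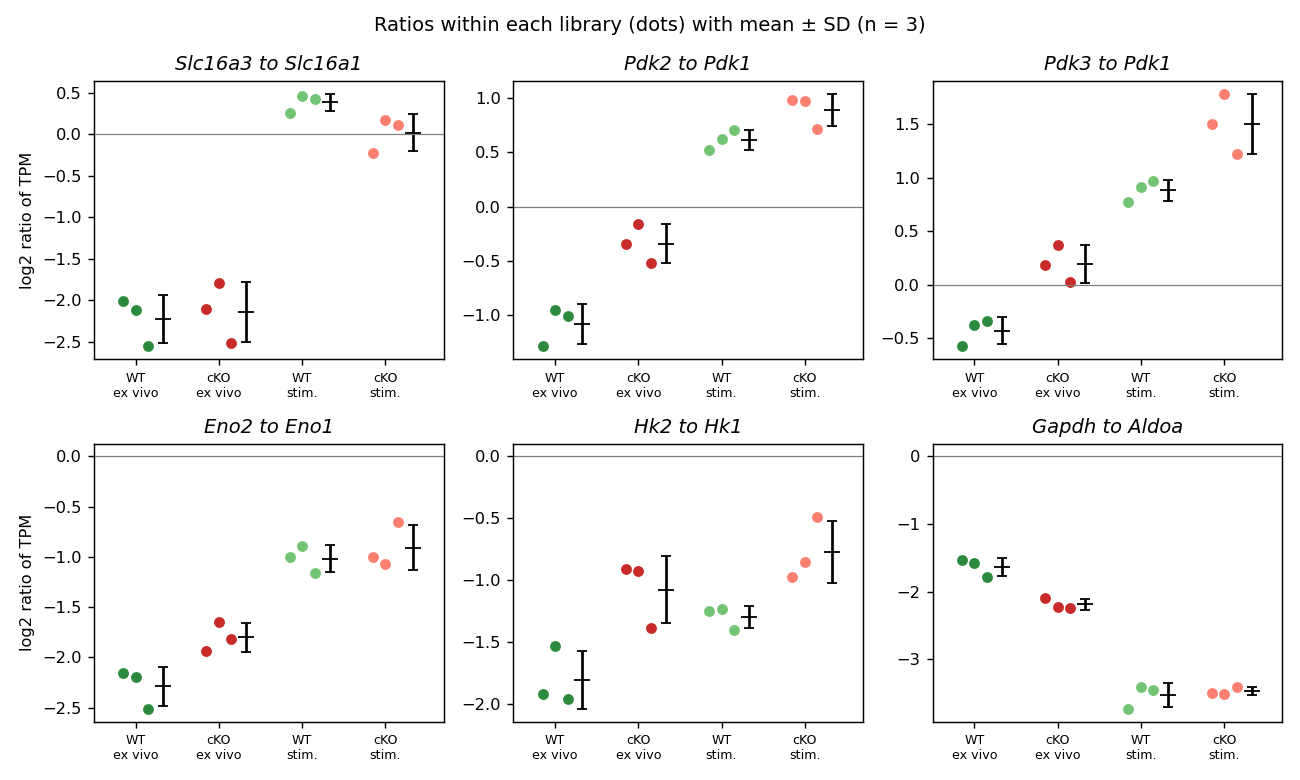
Log2 ratio of the TPM of 2 genes within each of the 12 libraries (dots) for 6 pairs, by group, with mean and SD of 3 libraries and a line at 0 for equal levels. The ratio of Slc16a3 to Slc16a1 goes from -2.23 in WT ex vivo to 0.38 in WT stimulated, and those of Pdk2 and Pdk3 to Pdk1 are lowest in WT ex vivo, then cKO ex vivo, then WT stimulated, and highest in cKO stimulated.

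Several of these genes have near-identical copies elsewhere in the genome, from which reads of 51 bases cannot always be told apart. Of the 51-base windows of its exons, Pgam1 had 9.01% that occur once in NCBIM37, Pgk1 32.0%, Gapdh 49.97%, Pkm2 60.5%, Pdhb 66.6% and Ldhb 73.9%. The median was 99.7% over the 39 genes and 100% over the genes tested, of which 6.78% were under 50%, and 30 of the 39 genes were over 90%. Levels of Pgam1, Pgk1 and Gapdh are therefore uncertain against those of other genes, and the part of such reads in their values was not tested. Slc2a1, Slc2a3, Slc16a1, Slc16a3, Hk2 and Pdk1 are not among the 9 genes of 90% or less.

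**Figure D5:**
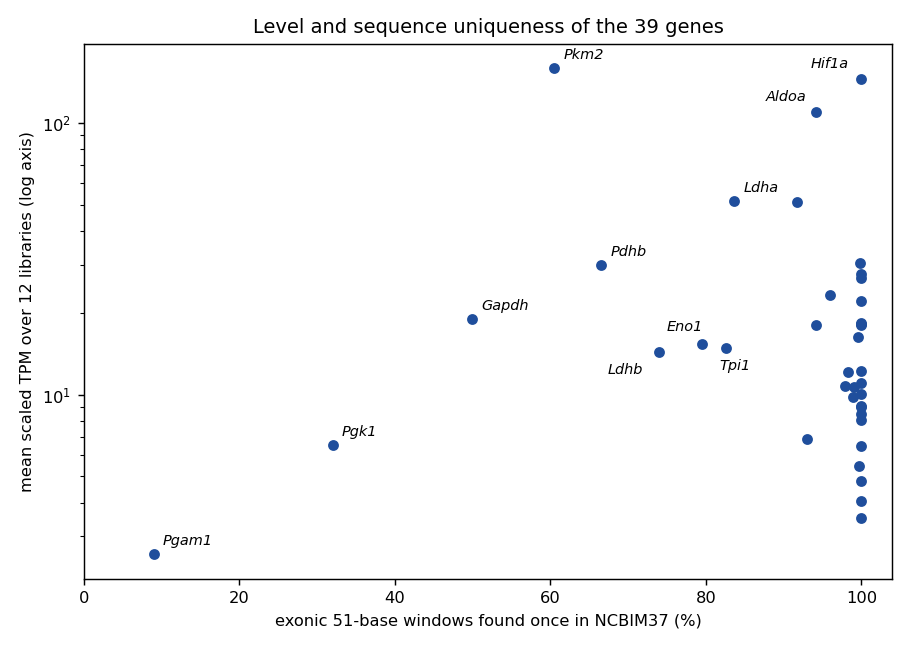
Mean scaled TPM over 12 libraries (log axis) against the share of exonic 51-base windows found once in NCBIM37 (%), 1 point for each of the 39 genes. Pgam1, at 9.01%, has the lowest share and the lowest level (2.58 scaled TPM), Pgk1 (32.0%) and Gapdh (49.97%) follow, and most genes stand close to 100%.

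Other genes of glucose metabolism were taken from a list of 38, of which 24 were tested. In WT 3 were higher and 10 lower after stimulation, and in cKO 2 and 9, where 32% (WT) and 43.8% (cKO) of all genes tested were called in either direction. The median change of the 24 was -0.05 in WT and -0.19 in cKO, beside 0.00 and -0.01 over all genes. Prps2, which makes the activated ribose of nucleotide synthesis, changed by -1.24 and -1.18 (log2), and H6pd, the hexose 6-phosphate dehydrogenase of the endoplasmic reticulum, by -0.63 and -0.51. Slc2a6, a hexose transporter, was higher in both, by 0.81 and 0.49. Between genotypes 5.29% of all genes were called ex vivo and 6.93% after stimulation. Slc2a6 (0.69, limma adjusted p 0.0439) and Pck2, the mitochondrial phosphoenolpyruvate carboxykinase (0.75, adjusted p 0.00758), were higher in cKO ex vivo, although the Slc2a6 call was lost in all 12 fits without a library (adjusted p of up to 0.178). After stimulation Pck2 was higher (0.65, adjusted p 0.0127) and Emb, a partner protein of monocarboxylate carriers, lower (-0.86, adjusted p 0.0214), the latter not called without WT stimulated 2 or 3 or cKO stimulated 1 or 3 (up to 0.0844). No gene of this list had a called interaction.

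Of 25 genes of the tricarboxylic acid cycle 22 were tested. After stimulation 1 was higher and 5 lower in WT, and 2 higher and 10 lower in cKO, against the same 32% and 43.8% of all genes, and the median change of the 22 was -0.13 and -0.28. Among those called in both genotypes were Mdh1, the cytosolic malate dehydrogenase, higher (0.51 and 0.54), and Idh3g, a subunit of isocitrate dehydrogenase, lower (-0.54 and -0.71). Me2, the mitochondrial malic enzyme, was lower in cKO in both conditions, by 0.50 each, with limma adjusted p of 0.0370 and 0.0312. It was not called ex vivo without any of the 6 ex vivo libraries or WT stimulated 2 (up to 0.12), nor after stimulation without cKO ex vivo 3, WT stimulated 2 or 3 or cKO stimulated 1 or 3 (up to 0.138).

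Of 22 regulators of T cell glycolysis 18 were tested. In WT 4 were higher after stimulation, among them Irf4 (1.56), a transcription factor induced by T cell receptor signals, and Myc (0.61, not called without WT stimulated 2, limma adjusted p 0.0524), which drives glycolytic genes in activated T cells, and 3 were lower, among them Txnip (-0.90), an inhibitor of glucose uptake. In cKO 4 were higher and 6 lower. The called share of all genes was 32% in WT and 43.8% in cKO, and the median change of the 18 was 0.11 and -0.08. Irf4 was higher in cKO ex vivo (1.12, adjusted p 0.00123) and after stimulation (0.51, adjusted p 0.0474), the second call being lost in 10 of 12 fits without a library (up to 0.149). Of 26 genes of the HIF system and hypoxia targets outside glycolysis 17 were tested, of which 3 were higher and 3 lower after stimulation in WT, and 4 and 5 in cKO, beside those shares of all genes, with medians of -0.04 and -0.07. Ndrg1, a stress and hypoxia target, was higher in both genotypes (1.77 and 1.80), and Bhlhe40, a transcription factor of activated T cells, was lower in both (-1.60 and -2.61) and higher in cKO than in WT ex vivo (1.12, adjusted p 0.00447). P4ha1, a prolyl 4-hydroxylase subunit, was lower in cKO ex vivo (-0.60, adjusted p 0.00173), a call lost with the 1 TPM filter, with no filter, on the TPM as deposited and rescaled without Gm10800 (up to 0.37).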

How the data were processed

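RNA depleted of ribosomal RNA was sequenced as 51-base read pairs, and per the study's methods and labels the authors aligned reads to mm9 with STAR 2.6.0c and counted them with HTSeq 0.6.1. The authors deposited a table of TPM, recorded here as signal because its single column stacks the 12 libraries, and a table of log2 values. Their table of comparisons (fold changes, F, p and FDR) was not used, and 0 columns belonged to other samples.

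TPM were divided by factors from the trimmed mean of M-values (trims of 30% and 5%), and log2(scaled TPM + 1) was fitted with limma 3.58.1 (R 4.3.3, trended eBayes) over all 12 libraries and 4 groups for the 13318 genes with a group mean of at least 5 TPM. Fold changes are on that scale and understate those of low genes. Genes were called at an adjusted p under 0.05 (Benjamini-Hochberg within each comparison). Reads behind the TPM were recovered from the deposited TPM and log2 values (99.9977% whole within 0.01) and fitted with voom as an alternative. Depth was 8208659 to 20247649 reads a library, and counts of a gene ranged from 28 to 67 for Pgam1 to 4467 to 12189 for Hif1a. Summaries were made in Python 3.11.15 with numpy 2.4.6 and pandas 2.3.3, and the fit was tested on simulated data.

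Full values were given for genes of the group that were called, that were among the 5 most abundant or that had the largest rise or fall, with some others added after their values were seen, and genes of the other lists were named only where called. The genes and the lists were chosen with earlier results of these data known. Replicates came from individual mice. Replicate numbers did not pair libraries: deviations of 18 same-numbered pairs correlated at -0.21 to 0.26, with 2 over 0.1, so the block is an alternative only. The other alternatives were filters, scalings, pseudocounts, only the groups compared, voom and leaving out each library.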

Additional observations from a re-analysis of the deposited data

Results flagged for a closer look

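P4ha1, a subunit of the prolyl 4-hydroxylase that matures collagen and a hypoxia target outside the 39 genes, was picked out because its response to stimulation differed between the genotypes by a test of the difference itself. The interaction was 0.53 (log2, SE 0.11, limma adjusted p 0.0486). Its mean level ex vivo was 24.7 scaled TPM for WT and 15.9 for cKO, and once stimulated 10.9 and 10.3. The call was lost in all 12 fits that left out a library (adjusted p of 0.0625 to 0.137) and in the fit that blocks on replicate number (0.114), and the adjusted p ranged from 0.0298 to 0.906 over all alternatives.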

How the results depend on the processing

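Of 1904 values of 83 gene results under the alternatives, 1581 kept their direction and their side of the threshold, 251 lost a call, 24 gained one and 48 reversed. All 39 genes were tested with the 1 TPM filter, with no filter and when rescaled without Gm10800, 37 without WT stimulated 2 or cKO stimulated 2, 35 for genotype ex vivo with only the groups compared, and 36 otherwise. The number called ex vivo between genotypes was 3, and 0 with the 1 TPM filter, 0 with no filter, 1 on the TPM as deposited, 1 rescaled without Gm10800 and 5 with voom. After stimulation it was 1, and 0 in the first 4 of these settings, 5 with quantile normalization and 2 with voom. Stimulation in WT gave 18 calls, and 8, 8 and 10 with the 1 TPM filter, no filter and the TPM as deposited. Leaving out each library gave 3 to 4, 0 to 2, 12 to 21 and 15 to 24 calls for genotype ex vivo, genotype after stimulation, stimulation in WT and stimulation in cKO, and 0 for the interaction. The count after stimulation was 0 without WT stimulated 1, 2 or 3 or cKO stimulated 1, and 2 without cKO stimulated 3. With the replicate number as a block, which did not pair the libraries, the 5 counts were 3, 0, 16, 21 and 0. No library correlated best with its own number in all 3 other groups. Sums as deposited were 1175 for cKO Treg ex vivo, and 1007 (WT) and 823 (cKO) once stimulated, and without Pkm2 the 4 sums were 854, 871, 785 and 780.0. The cause of these changes was not tested.

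With the 1 TPM filter the log2 changes that reversed were Hif1a -0.062 for genotype after stimulation, and Aldoa -0.42, Eno2 -0.063, G6pdx -0.15, Hif1a -0.31 and Pdk3 -0.20 for stimulation in cKO. With no filter they were Hif1a -0.059 for genotype after stimulation, and Aldoa -0.41, Eno2 -0.054, G6pdx -0.14, Hif1a -0.30 and Pdk3 -0.19 for stimulation in cKO. On the TPM as deposited they were Hif1a -0.047 for genotype after stimulation, and Aldoa 0.22, Gpi1 0.18 and Ldha 0.18 for genotype ex vivo, and Gapdh -0.044 and Pfkfb3 -0.11 for the interaction, and Aldoa -0.20 and Hif1a -0.10 for stimulation in cKO. Quantile normalization gave Aldoa 0.055, Gpi1 0.074 and Pkm2 0.17 for genotype after stimulation, and Aldoa 0.024 for genotype ex vivo, and Pkm2 0.24 for stimulation in WT, and Gpi1 0.036, Ldha 0.28 and Pkm2 0.26 for stimulation in cKO. Rescaling without Gm10800 gave Aldoa 0.15, Gpi1 0.11 and Ldha 0.11 for genotype ex vivo, and Gpi1 0.053, Pdhb 0.049, Pfkfb3 0.18, Pkm2 0.10, Taldo1 6.0e-05 and Tkt 0.086 for stimulation in WT, and Ldha 0.10 for stimulation in cKO. The Aldoa value for genotype ex vivo lay between -0.074 and 0.088 when a library was left out, and turned without WT ex vivo 3. The Gpi1 value for genotype after stimulation lay between -0.16 and 0.040 when a library was left out, and turned without cKO stimulated 3. The Gpi1 value for genotype ex vivo lay between -0.13 and 0.029 when a library was left out, and turned without WT ex vivo 3 or cKO ex vivo 2. The Ldha value for genotype ex vivo lay between -0.22 and 0.079 when a library was left out, and turned without WT ex vivo 1, WT ex vivo 3 or cKO ex vivo 2. The Ldha value for stimulation in cKO lay between -0.29 and 0.010 when a library was left out, and turned without cKO stimulated 3. The Pkm2 value for genotype after stimulation lay between -0.18 and 0.12 when a library was left out, and turned without WT stimulated 3 or cKO stimulated 3. The cause of these reversals was not tested.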
